A study of Mus musculus with 9 samples.

Results

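The cell cycle and DNA replication genes studied here are 39 genes named by symbol. They fall into 21 genes of the G1/S transition and of replication and 18 genes of G2 and mitosis (G2/M). Every symbol matched 1 Ensembl identifier among the 56719 genes listed in the count files, and all 39 members passed the filter on low counts, as did 17704 genes in all. Their transcripts were counted in polyadenylated liver RNA. There were 9 libraries of C57BL/6J mice, with 3 groups of 3. WT mice received PBS by gavage and by tail vein. Con A mice received PBS by gavage and then, on the day the liver was taken, 10 mg/kg concanavalin A by tail vein. This lectin from jack beans stimulates T cells, and its injection is used to model autoimmune hepatitis in mice. In the FMT-Con A group, 4 weeks of gavage with faeces from mice with concanavalin A hepatitis came before that injection. Neither the age of the mice nor the hours between injection and sampling are given in the sources used here. The labels call the mice male in one field and female in another, and the Y-linked gene Ddx3y had 2676 to 6192 counts in each of the 9 libraries.

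Most hepatocytes of an adult liver rest outside the cell cycle and return to it after injury or loss of tissue. D-type cyclins with CDK4 and CDK6, and cyclin E with CDK2, release E2F factors from the RB family, and E2F then drives the genes that load and fire replication origins and supply nucleotides. Later, B-type cyclins with CDK1, the Aurora and Polo kinases, and the FOXM1 and MuvB regulators carry the cell through mitosis. Inhibitors such as p21, encoded by Cdkn1a, hold the cycle at its checkpoints.

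Promoter sequence, which the choice of members did not use, differed between the G1/S and G2/M genes. RefSeq windows on GRCm38.p6, from 250 bases before to 50 bases after a transcription start, were found for 28 of the 39 members, 15 of G1/S and 13 of G2/M. The E2F motif was searched as TTTNNCGC on both strands, where N is any base. It was present in 7 of the 15 G1/S members (46.7%), in 1 of the 13 G2/M members (7.69%) and in 1602 of all 27025 genes with a window (5.93%). The CHR motif, the element bound by MuvB complexes at mitotic genes, was searched as TTTGAA on both strands. It was present in 1 of the 15 G1/S members (6.67%), in 9 of the 13 G2/M members (69.2%) and in 5466 of all genes (20.2%). The CCAAT box, bound by NF-Y, was present in 9 of 15 (60%), 12 of 13 (92.3%) and 11096 of all genes (41.1%). Matches of different motifs shared bases in 1 of the 30 member windows.

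The 6 stretches below show how the motifs sit in 2 helicase genes of G1/S and in 4 genes of G2/M. They run 5′ to 3′ on the strand of the gene, end at or shortly before the annotated start and leave out annotated exons, and capitals mark E2F or CHR matches that lie whole within the stretch.
Mcm6 (chr1:128359706-128359955, minus strand): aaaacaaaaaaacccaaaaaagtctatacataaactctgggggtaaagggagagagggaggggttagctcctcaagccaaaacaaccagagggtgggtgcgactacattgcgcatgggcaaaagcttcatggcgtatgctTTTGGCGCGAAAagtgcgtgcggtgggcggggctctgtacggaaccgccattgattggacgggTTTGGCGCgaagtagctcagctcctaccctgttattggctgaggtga
Mcm5 (chr8:75109259-75109508, plus strand): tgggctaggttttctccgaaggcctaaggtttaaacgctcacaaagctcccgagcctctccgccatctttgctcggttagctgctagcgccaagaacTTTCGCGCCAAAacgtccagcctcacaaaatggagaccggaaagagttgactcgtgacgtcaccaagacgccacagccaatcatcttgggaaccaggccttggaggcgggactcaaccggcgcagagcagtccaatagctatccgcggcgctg
Cdk1 (chr10:69352939-69353162, minus strand): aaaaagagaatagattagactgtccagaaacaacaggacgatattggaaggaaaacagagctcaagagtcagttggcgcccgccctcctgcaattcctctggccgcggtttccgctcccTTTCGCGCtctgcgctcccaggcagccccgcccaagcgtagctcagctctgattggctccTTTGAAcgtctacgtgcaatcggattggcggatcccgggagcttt
Mki67 (chr7:135716380-135716629, minus strand): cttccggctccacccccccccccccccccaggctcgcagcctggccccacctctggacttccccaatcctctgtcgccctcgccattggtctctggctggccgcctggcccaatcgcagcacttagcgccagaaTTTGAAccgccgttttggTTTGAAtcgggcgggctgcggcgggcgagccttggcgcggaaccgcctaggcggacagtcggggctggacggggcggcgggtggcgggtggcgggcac
Top2a (chr11:99024190-99024439, minus strand): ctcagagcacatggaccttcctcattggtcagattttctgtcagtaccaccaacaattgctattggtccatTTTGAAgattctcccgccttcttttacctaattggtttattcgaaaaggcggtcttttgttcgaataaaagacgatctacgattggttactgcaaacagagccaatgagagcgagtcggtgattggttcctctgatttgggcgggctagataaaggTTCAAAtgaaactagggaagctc
Ccnb2 (chr9:70421555-70421804, minus strand): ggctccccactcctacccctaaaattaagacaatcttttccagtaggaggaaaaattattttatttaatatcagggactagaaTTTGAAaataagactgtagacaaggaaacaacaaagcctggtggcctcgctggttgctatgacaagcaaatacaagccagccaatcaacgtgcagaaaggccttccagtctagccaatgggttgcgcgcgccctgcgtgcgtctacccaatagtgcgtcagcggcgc
Mcm6 carried overlapping E2F matches that began 110 and 106 bases before the start and a further match at 47 bases. In Mcm5 an overlapping pair began at 153 and 149 bases. Cdk1, which encodes the mitotic kinase, had an E2F match at 131 bases and a CHR match at 71 bases, and further E2F and CHR matches at 29 and 15 bases that do not lie whole within the stretch. Mki67 had CHR matches at 116 and 98 bases, Top2a at 179 and 23 bases, and Ccnb2 at 167 bases, with a further CHR match after its start.

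**Figure D1:**
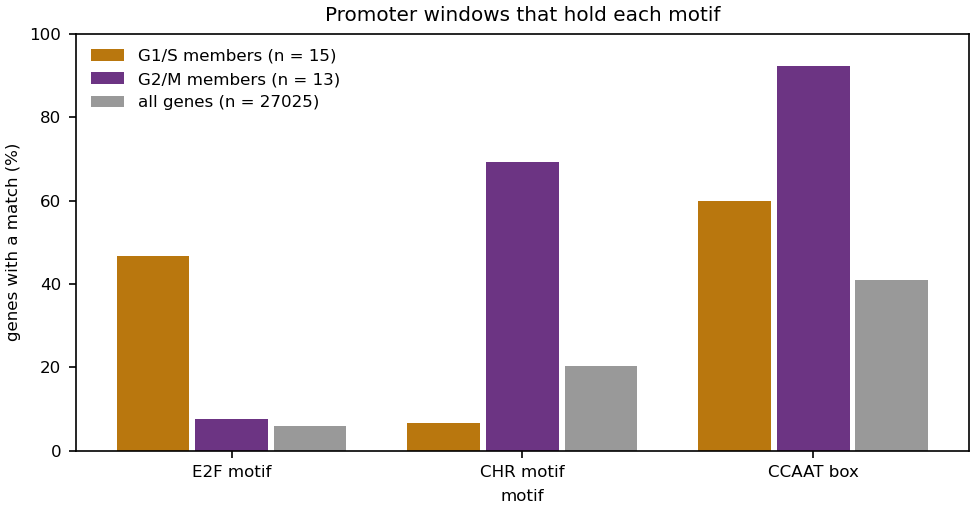
Bars give the percent of genes (vertical axis) whose promoter window of 300 bases held each motif (horizontal axis), for 15 G1/S members, 13 G2/M members and all 27025 genes with a window. The E2F bar is highest for the G1/S members (46.7%) and the CHR bar for the G2/M members (69.2%).

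Library totals ran from 20513051 to 29466806 counts. Mitochondrial transcripts took 19.6 to 22.4% of the counts in WT and 5.03 to 11.7% in the 6 libraries of injected mice. Summed over 26 skeletal muscle genes, the level was 49.3 to 65.0 CPM in WT, where CPM is the count scaled by library size and TMM factor. It was 13.8, 27.5 and 2438 CPM in Con A 1, 2 and 3, and 20240, 2061 and 20050 CPM in FMT-Con A 1, 2 and 3. FMT-Con A 1 and 3 thus stood apart from the other libraries, and the counts of members called below are also given without them. The hepatocyte list, led by Alb, summed to 59240 to 69310 CPM in WT, 50940 to 61780 CPM in Con A, and 31540 to 37410 CPM in FMT-Con A. Alb alone had means of 38810, 35420 and 19260 CPM in these groups. The 10 genes listed did not move together. By the test described below, 3 were higher and 3 lower in Con A against WT. In FMT-Con A against WT 2 were higher (Hnf4a and Tat), 4 lower and 4 did not pass. Since these are whole tissue samples, fewer cells of a type and less RNA per cell cannot be told apart. The labels number the mice of each group from 1 to 3, with 1 number per library, and do not say whether a library holds 1 mouse or a pool.

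Members were low in abundance. Counts per library ran from 6 to 1715 for the G1/S members and from 2 to 286 for the G2/M members, with medians of 98 and 31 in WT. Per kilobase of annotated exon, the highest mean levels in WT were those of Tk1 (14.1 CPM per kb), Myc (7.21), Gmnn (4.99) and Pcna (4.89), and the lowest those of Ccnb1 (0.0992) and Cdc6 (0.0779). In Con A the order was led by Myc (11.1 CPM per kb) and Pcna (9.93), and in FMT-Con A by Pcna (8.57) and Myc (5.58). For G2/M members the median coefficient of variation between libraries of a group was 33.9% in WT, 22.0% in Con A and 27.6% in FMT-Con A. Counting error alone would give 18.1, 21.1 and 24.6%. Among the WT libraries, WT 2 was highest in 10 and WT 3 lowest in 9 of the 18.

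**Figure D2:**
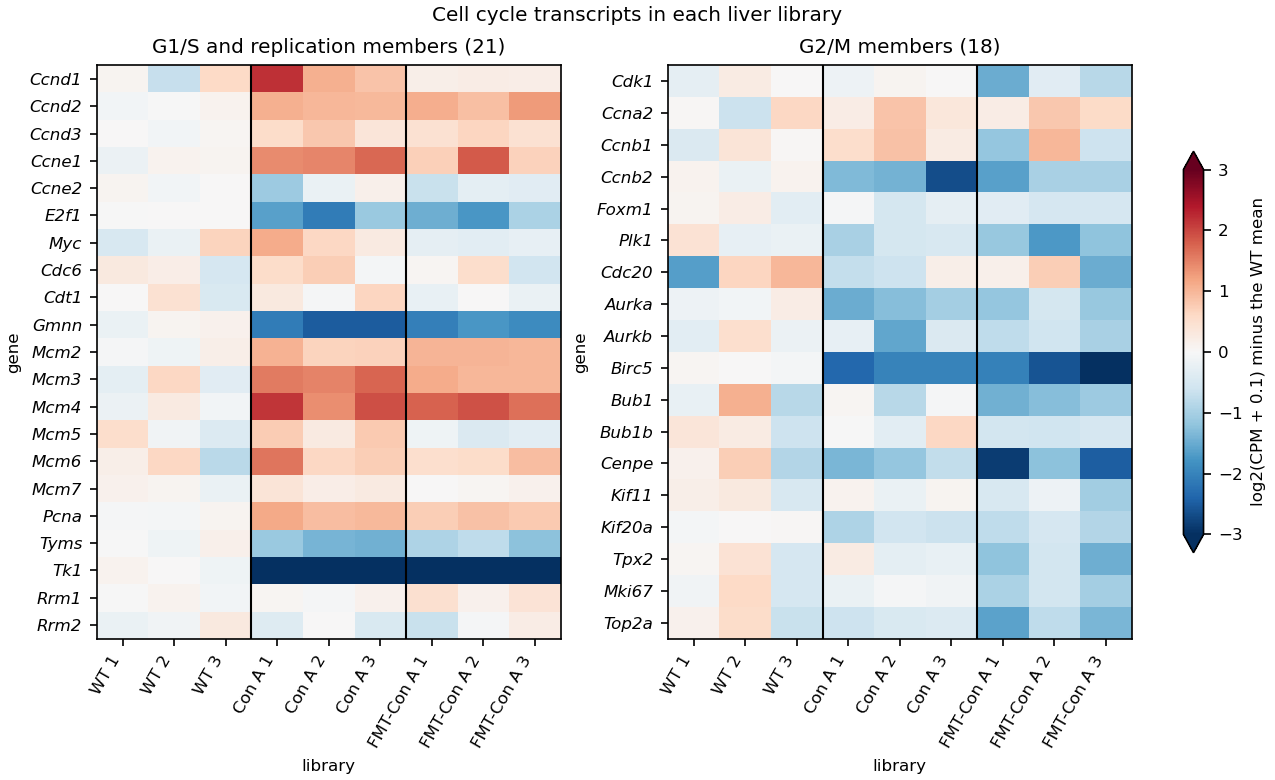
Each cell gives log2(CPM + 0.1) of a member (rows) in a library (columns) minus its WT mean, red above and blue below, with colours capped at 3. Gmnn and Tk1 are blue in all 6 libraries of injected mice, Mcm4 and Ccnd2 are red, and among G2/M members Birc5 is blue throughout.

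Con A against WT asks what the injection changed. Of the genes that open the cycle Ccnd1, Ccnd2, Ccnd3 and Ccne1 rose, as did 3 of the 6 helicase subunits and the clamp Pcna, while geminin, thymidine kinase, thymidylate synthase and E2F1 fell, and 0 G2/M members rose. Of the 21 G1/S members 8 rose and 4 fell, with a median log2 fold change of 0.58, against a median of 0.01 over all genes tested. Of the 18 G2/M members 4 fell, with a median log2 fold change of -0.54. Fold changes and adjusted p-values come from edgeR's quasi-likelihood F test with Benjamini-Hochberg adjustment over all 17704 genes and a threshold of 0.05. By this rule 63.4% of all genes were called (32.5% higher, 30.9% lower), and of the members 16 of 39 (41.0%) were called. Without FMT-Con A 1 and 3 in the fit, 8 members were higher and 9 lower.

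Among the G1 cyclins, Ccnd2 had 9.02, 9.46 and 10.4 CPM in the WT libraries, 20.2, 19.2 and 18.9 CPM in Con A, and 20.5, 17.99 and 23.4 CPM in FMT-Con A. All libraries of injected mice lay above all WT libraries. Its log2 fold change in Con A against WT was 1.01 (SE 0.13, n = 3 each, edgeR adjusted p = 9.02e-05). Ccne1, which encodes cyclin E1, the partner of CDK2 at S phase entry, had 1.10, 1.36 and 1.34 CPM in WT, and 3.56, 3.64 and 4.39 CPM in Con A (log2 fold change 1.61, SE 0.35, edgeR adjusted p = 0.00246). Ccnd3 rose by 0.58 on the log2 scale (edgeR adjusted p = 0.00288). It shares 4.11% of its exon bases with Bysl on the opposite strand, which had 8.35 ± 0.240 CPM in WT and 23.6 ± 2.02 CPM in Con A (SD, n = 3 each). Ccne2, the other cyclin E gene, had a log2 fold change of -0.28 and did not pass (edgeR adjusted p = 0.415). It shares 17.4% of its exon bases with Ints8 on the opposite strand, which had 16.9 ± 1.32 CPM in WT and 19.9 ± 1.94 CPM in Con A (SD, n = 3 each).

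Ccnd1, which encodes the cyclin D1 that growth signals induce in regenerating liver, varied between the Con A libraries. It had 3.94, 2.25 and 5.64 CPM in WT, and 17.2, 7.81 and 6.72 in Con A. The groups did not overlap, but Con A 1 stood far above both other Con A libraries. The log2 fold change was 1.42 (SE 0.40, edgeR adjusted p = 0.0104), and it was 0.87 (edgeR adjusted p = 0.0473) without Con A 1. Of the exon bases of Ccnd1, 23.4% are shared with LTO1 on the opposite strand. LTO1 had 16.4 ± 0.673 CPM in WT, and 11.2 ± 1.97 CPM in Con A (SD, n = 3 each). The strand setting of the counting is not given in the sources used here.

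E2f1, the factor that drives S phase genes, moved against the cyclins. Its CPM were 1.97, 2.01 and 2.01 in WT, 0.576, 0.388 and 0.870 CPM in Con A, and 0.663, 0.522 and 0.992 CPM in FMT-Con A. WT lay above all libraries of injected mice, on 43, 43 and 48 counts against 8 to 26. The log2 fold change in Con A against WT was -1.68 (SE 0.36, edgeR adjusted p = 0.00228). Myc, an immediate early growth regulator, had 13.2, 16.1 and 29.5 CPM in WT, and 39.7, 28.5 and 22.4 CPM in Con A. The groups overlapped, and the difference did not pass (log2 fold change 0.62, SE 0.29, edgeR adjusted p = 0.0826).

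Origin licensing loads the MCM2-7 helicase through CDC6 and CDT1, and geminin (Gmnn) blocks CDT1. Of the 6 helicase subunits, Mcm2, Mcm3 and Mcm4 rose and Mcm5, Mcm6 and Mcm7 did not pass. Mcm4 had 1.79, 2.48 and 1.92 CPM in WT, 9.32, 5.53 and 8.04 CPM in Con A, and 7.26, 7.98 and 6.60 CPM in FMT-Con A. Every library of an injected mouse was above every WT library. The log2 fold change in Con A against WT was 1.89 (SE 0.24, edgeR adjusted p = 8.49e-05). Mcm3 had 2.70, 5.15 and 2.59 CPM in WT and 10.0, 9.41 and 11.4 CPM in Con A, and 7.23, 6.69 and 6.68 CPM in FMT-Con A (log2 fold change 1.56, edgeR adjusted p = 0.000477). For Mcm2 the levels were 2.11, 1.97 and 2.47 CPM in WT and 4.61, 3.49 and 3.57 CPM in Con A, and 4.51, 4.51 and 4.43 CPM in FMT-Con A (log2 fold change 0.83, edgeR adjusted p = 0.00525).

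The 3 subunits that did not pass had log2 fold changes of 0.59 (Mcm5), 1.02 (Mcm6) and 0.28 (Mcm7), with edgeR adjusted p of 0.106, 0.0612 and 0.0895. Mcm6 rested on 11 to 30 counts in WT and 29 to 55 in Con A. Cdc6 and Cdt1, the loaders, had values of 0.49 and 0.30 and did not pass. Pcna, the sliding clamp of the replication fork, had 11.5, 11.3 and 12.5 CPM in WT, 25.8, 22.5 and 23.2 CPM in Con A, and 19.8, 21.5 and 20.5 CPM in FMT-Con A. WT was below both other groups, with a log2 fold change of 1.02 in Con A against WT (SE 0.11, edgeR adjusted p = 2.83e-05).

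Geminin went the other way. Gmnn had 6.32, 7.68 and 7.94 CPM in WT, 1.62, 1.21 and 1.20 CPM in Con A, and 1.67, 2.09 and 1.91 CPM in FMT-Con A. All 6 libraries of injected mice lay far below the lowest WT library. The log2 fold change in Con A against WT was -2.44 (SE 0.22, edgeR adjusted p = 1.12e-05).

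Among the nucleotide enzymes 2 of 4 fell. Tk1, the salvage kinase that phosphorylates thymidine, was the most abundant member in WT with 78.5, 74.0 and 66.9 CPM, and had 6.23, 5.24 and 2.49 CPM in Con A, and 5.87, 5.46 and 6.03 CPM in FMT-Con A. The groups were far apart, with a log2 fold change of -3.98 in Con A against WT (SE 0.28, edgeR adjusted p = 2.08e-06). Tk1 lies at chr11:117815526-117826092 on the minus strand, head to head with Afmid, the kynurenine formamidase gene, and 83 of its 5198 exon bases (1.60%) are shared with Afmid on the opposite strand. Afmid had 47.9 ± 6.32 CPM in WT, 4.82 ± 1.91 CPM in Con A, and 3.97 ± 0.509 CPM in FMT-Con A (SD, n = 3 each). The part of Afmid reads in the Tk1 counts was not tested.

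Tyms, thymidylate synthase, had 7.65, 7.07 and 8.65 CPM in WT and 3.51, 2.91 and 2.82 CPM in Con A, and 4.04, 4.51 and 3.24 CPM in FMT-Con A (log2 fold change -1.34, SE 0.20, edgeR adjusted p = 0.000238). Rrm1 and Rrm2, the subunits of ribonucleotide reductase, had log2 fold changes of 0.05 and -0.32 and did not pass (edgeR adjusted p = 0.799 and 0.44). On GRCm38, Gmnn lies at chr13:24751845-24761923, Mcm4 at chr16:15623897-15637400, Tyms at chr5:30058202-30073617 and E2f1 at chr2:154559407-154569892.

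In G2/M the falls were in Birc5, Ccnb2, Aurka and Kif20a. Birc5, which encodes survivin of the chromosomal passenger complex, had 3.80, 3.65 and 3.47 CPM in WT, 0.628, 0.825 and 0.829 CPM in Con A, and 0.821, 0.522 and 0.267 CPM in FMT-Con A. WT stood well above both other groups, and the log2 fold change in Con A against WT was -2.25 (SE 0.36, edgeR adjusted p = 0.000372). Ccnb2, a B-type cyclin, had 1.69, 1.36 and 1.71 CPM in WT and 0.576, 0.534 and 0.166 CPM in Con A, and 0.442, 0.760 and 0.763 CPM in FMT-Con A (log2 fold change -1.92, SE 0.44, edgeR adjusted p = 0.00343). Aurka, the spindle pole kinase, had 3.34, 3.51 and 4.31 CPM in WT, 1.26, 1.46 and 1.78 CPM in Con A, and 1.61, 2.52 and 1.64 CPM in FMT-Con A (log2 fold change -1.31, SE 0.27, edgeR adjusted p = 0.00191).

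Kif20a, a kinesin of cytokinesis, fell by 0.75 on the log2 scale (edgeR adjusted p = 0.0236), and this call was lost without WT 2, WT 3, Con A 1 or Con A 3, and with no filter on low counts. It shares 29.3% of its exon bases with Cdc23 on the opposite strand, which had 11.4 ± 0.630 CPM in WT, and 13.7 ± 1.05 CPM in Con A (SD, n = 3 each). The proliferation markers did not pass. Mki67, which coats mitotic chromosomes, had 8.29, 13.4 and 6.27 CPM in WT, and 7.70, 8.68 and 8.21 CPM in Con A. The Con A libraries lay inside the WT range. Top2a, which untangles sister chromatids, had 6.55, 8.85 and 3.72 CPM in WT, and 3.88, 4.37 and 4.52 CPM in Con A, again overlapping (log2 fold change -0.58, edgeR adjusted p = 0.144). Cdk1 had 1.01, 1.498 and 1.25 CPM in WT, and 1.10, 1.31 and 1.24 CPM in Con A (log2 fold change -0.04, edgeR adjusted p = 0.927). Ccnb1, the main partner of CDK1, rested on 6 to 12 counts in WT and 12 to 17 in Con A (log2 fold change 0.63, SE 0.64, edgeR adjusted p = 0.41). The other 10 G2/M members that did not pass had log2 fold changes from -1.25 (Cenpe, edgeR adjusted p = 0.0513) to 0.42 (Ccna2). Ccna2 shares 12.5% of its exon bases with Exosc9 on the opposite strand, which had 7.04 ± 0.92 CPM in WT and 11.8 ± 2.31 CPM in Con A (SD, n = 3 each). Cenpe passed in 9 of 17 alternatives (edgeR or DESeq2 adjusted p 0.0198 to 0.205).

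**Figure D3:**
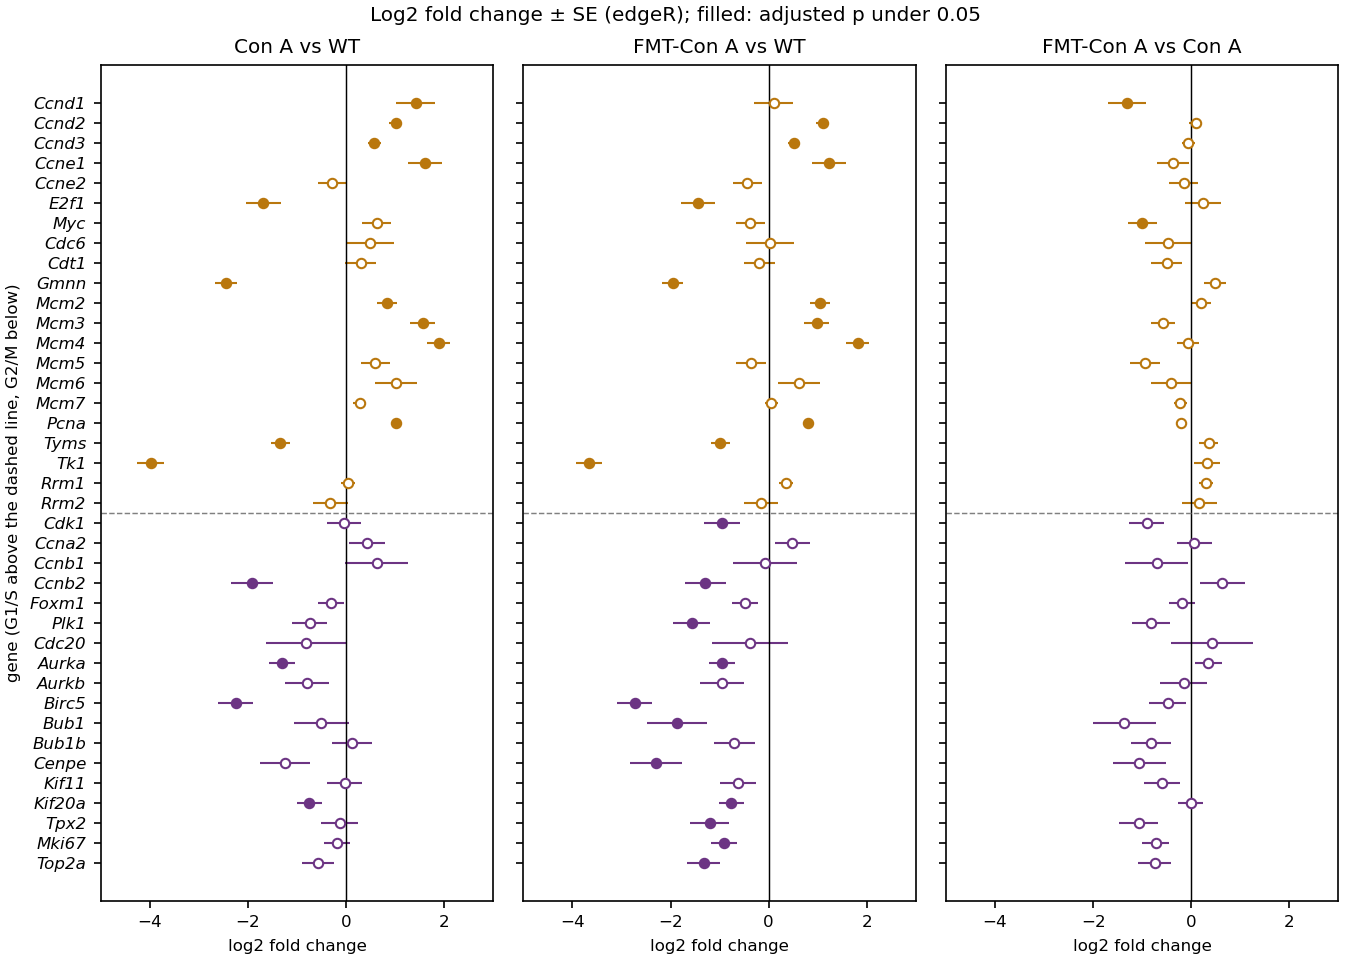
Points are log2 fold changes and bars their SE for each member (rows) in the 3 comparisons, G1/S members in ochre above the dashed line and G2/M members in purple below it. Filled points passed the threshold, with 8 G1/S members higher in Con A against WT and 11 G2/M members lower in FMT-Con A against WT.

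FMT-Con A against WT shares its WT libraries with the comparison above, so that the 2 are not independent. Here 7 G1/S members were higher and 4 lower, and 11 of the 18 G2/M members were lower and 0 higher, with medians of 0.06 and -0.95 on the log2 scale against 0.03 over all genes. Of all genes 59% were called (31.2% higher, 27.9% lower), and of the members 22 of 39 (56.4%). For G2/M members alone the share lower was 61.1%. WT and FMT-Con A libraries were fully separate in 13 of the 18 G2/M members (72.2%) and, with both directions counted, in 69.1% of all genes. Without FMT-Con A 1 and 3, the libraries richest in muscle genes, 2 G2/M members (Plk1 and Birc5) remained lower and 6 G1/S members were higher and 3 lower. Leaving out single libraries, the G2/M members that remained lower were 4 without FMT-Con A 1, 6 without FMT-Con A 3, 6 without WT 2 and 7 without WT 1.

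In the G1/S members the log2 fold changes against WT were 1.10 for Ccnd2, 1.24 for Ccne1, 0.52 for Ccnd3, 1.82 for Mcm4, 1.04 for Mcm2, 0.98 for Mcm3 and 0.81 for Pcna. The falls were -3.66 for Tk1, -1.95 for Gmnn, -1.45 for E2f1 and -0.99 for Tyms. The edgeR adjusted p of these 11 genes ran from 4.66e-06 (Tk1) to 0.0114 (Ccne1). Ccnd1 had 4.20, 4.32 and 4.23 CPM in FMT-Con A, within the WT range (log2 fold change 0.11, edgeR adjusted p = 0.833). Ccne1 had 2.15, 4.795 and 2.10 CPM, FMT-Con A 2 being the highest. Myc had 15.2, 14.8 and 15.5 CPM, also within the WT range (log2 fold change -0.37, edgeR adjusted p = 0.29).

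Among the G2/M members lower in this comparison, Top2a had 1.89, 3.51 and 2.25 CPM in FMT-Con A, all below the lowest WT library (log2 fold change -1.33, SE 0.33, edgeR adjusted p = 0.00669). Mki67 had 4.58, 5.98 and 4.31 CPM, likewise below WT (log2 fold change -0.91, SE 0.27, edgeR adjusted p = 0.014). Cenpe, the kinesin that moves chromosomes to the spindle equator, had 4.21, 6.41 and 2.05 CPM in WT, and 0.442, 1.57 and 0.610 in FMT-Con A (log2 fold change -2.31, SE 0.53, edgeR adjusted p = 0.00415). For each of these 3 genes FMT-Con A 2 was the highest of its group. The same library was the highest of the group in 12 of the 18 G2/M members, and its summed muscle level was 2061 CPM, against 20240 and 20050 CPM in FMT-Con A 1 and 3.

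Plk1, the Polo kinase of mitotic entry, had 1.42, 0.843 and 0.878 CPM in WT, 0.471, 0.679 and 0.705 CPM in Con A, and 0.410, 0.237 and 0.382 CPM in FMT-Con A. The 3 groups did not overlap, and FMT-Con A against WT gave a log2 fold change of -1.57 (SE 0.37, edgeR adjusted p = 0.00496). Bub1, a kinase of the spindle checkpoint, had 0.504, 1.36 and 0.293 CPM in WT and 0.158, 0.190 and 0.229 in FMT-Con A, from 4 to 6 counts per library (log2 fold change -1.87, edgeR adjusted p = 0.0245). Tpx2, a spindle assembly factor, had 1.28, 1.69 and 0.836 CPM in WT and 0.474, 0.807 and 0.382 in FMT-Con A (log2 fold change -1.21, edgeR adjusted p = 0.0239). Cdk1 had 0.379, 0.9496 and 0.649 CPM in FMT-Con A (log2 fold change -0.95, edgeR adjusted p = 0.0433). The values for Birc5, Ccnb2, Aurka and Kif20a were -2.73, -1.29, -0.96 and -0.76. These calls differed in how well they held. Plk1 and Birc5 passed in all 17 alternatives, Aurka in 15, Ccnb2 in 13, Tpx2 in 12 and Cdk1 in 5, and Bub1 in 11 of 16. The Kif20a call was lost with no filter on low counts, and without WT 1, WT 2, WT 3, FMT-Con A 1 or FMT-Con A 3.

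The third comparison, FMT-Con A against Con A, asks what the transfer of faeces changed in mice that all had the injection, and it shares libraries with both comparisons above. Ccnd1 and Myc were lower after the transfer, 0 members were higher and 37 of 39 did not pass. Of all genes 16.8% were called (6.26% higher, 10.6% lower), against 5.13% of the members. Ccnd1 had 17.2, 7.81 and 6.72 CPM in Con A, and 4.20, 4.32 and 4.23 CPM in FMT-Con A, with no overlap (log2 fold change -1.31, SE 0.39, edgeR adjusted p = 0.0478). Myc had 39.7, 28.5 and 22.4 CPM in Con A, and 15.2, 14.8 and 15.5 CPM in FMT-Con A, also with no overlap (log2 fold change -0.99, SE 0.29, edgeR adjusted p = 0.0438). The FMT-Con A libraries lay close together and Con A 1 was the highest library for both genes. Over 17 alternatives Ccnd1 passed in 7 (edgeR or DESeq2 adjusted p 0.00625 to 0.345) and Myc in 8 (0.00451 to 0.31). Neither passed without Con A 1, without any single FMT-Con A library, with the libraries scaled by their totals alone, or with the replicate number as a block, which called Mki67 in their place.

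The median log2 fold change in this comparison was -0.16 for G1/S and -0.65 for G2/M members, against -0.01 over all genes. Of the 18 G2/M members 14 had values below 0 and 0 passed. An unadjusted edgeR p under 0.05 was found for 3 of the 18, and for 6029 of all 17704 genes tested. Con A and FMT-Con A libraries were fully separate in 7 G2/M members (38.9%), all lower after the transfer. Over all genes the share was 32.7%, with both directions counted. Those 7 were Cdk1, Plk1, Bub1, Bub1b, Tpx2, Mki67 and Top2a. Mki67 had a log2 fold change of -0.73 (SE 0.27, edgeR adjusted p = 0.0844) and Top2a of -0.75 (SE 0.34, edgeR adjusted p = 0.147). Leaving out FMT-Con A 2 gave 5 members lower (Tpx2, Cenpe, Ccne1, Cdk1 and Ccnb1), and DESeq2 gave 4 (Ccnd1, Myc, Mki67 and Mcm5). Without FMT-Con A 2 the group holds only the muscle-rich FMT-Con A 1 and 3. With those left out instead, the log2 fold changes of Ccne1 (0.309) and Ccnb1 (0.475) changed sign, and those of Tpx2, Cenpe and Cdk1 stayed below 0. Their size was not steady. Over the 17 alternatives Tpx2 ran from -1.399 to -0.513, Cenpe from -1.745 to -0.18 and Cdk1 from -1.242 to -0.358. The main fit gave -1.075, -1.059 and -0.911. Mcm5 just missed the threshold in edgeR (log2 fold change -0.95, edgeR adjusted p = 0.0564).

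**Figure D4:**
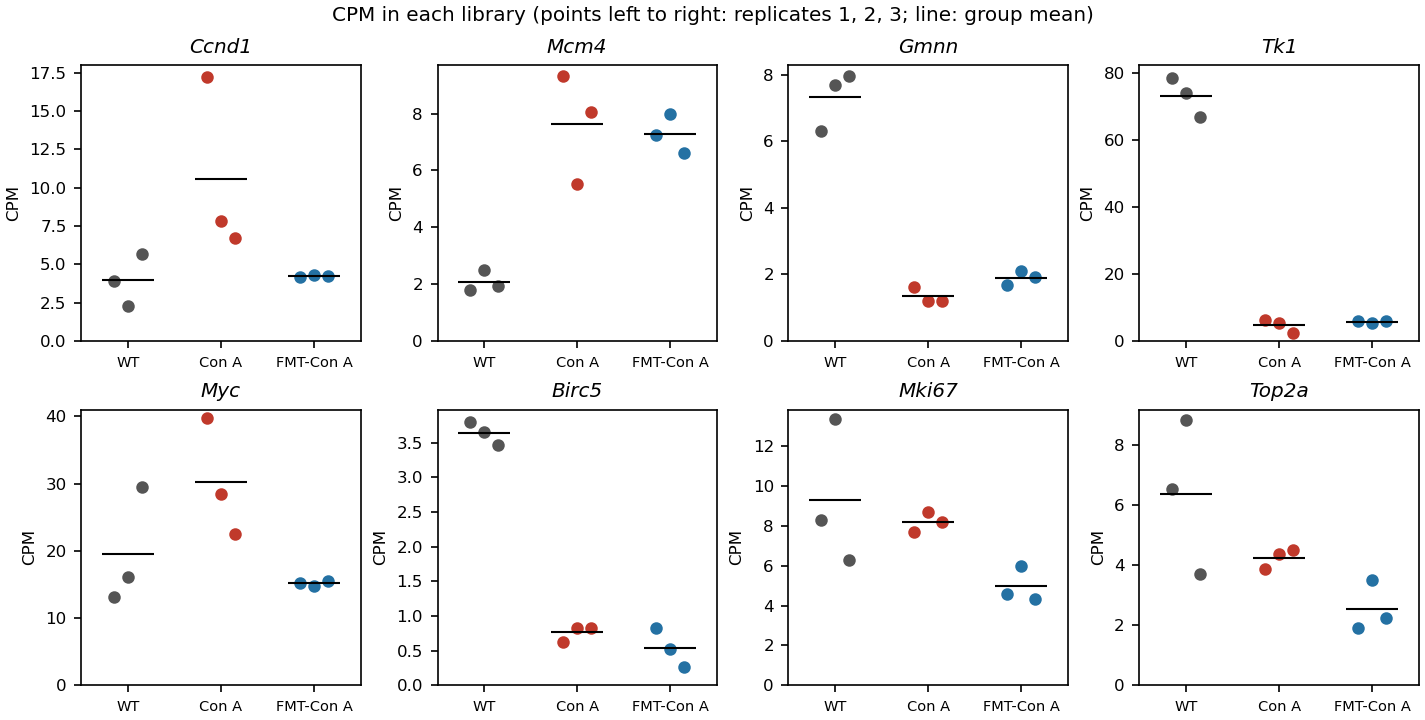
Points are CPM (vertical axes, from 0) of 8 members in each library of the 3 groups, and lines are group means. Ccnd1 and Myc are highest in Con A 1 and tightly grouped in FMT-Con A, while Gmnn, Tk1 and Birc5 are low in all 6 libraries of injected mice.

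Calls can be set beside the promoter motifs as a description, with no test. Of the 7 G1/S members with an E2F match, Mcm3 rose and Tyms fell in Con A against WT and 5 did not pass. Of the 8 without one, 4 rose, 2 fell and 2 did not pass. Of the 9 G2/M members with a CHR match, 6 were lower in FMT-Con A against WT, as were 3 of the 4 without one. Of the 9 G1/S members with a CCAAT box, 4 rose (Ccnd3, Mcm2, Mcm3 and Pcna), 0 fell and 5 did not pass in Con A against WT, and of the 6 without one, 1 rose (Ccne1) and 3 fell (E2f1, Tk1 and Tyms). The counts were the same in FMT-Con A against WT. Of the 12 G2/M members with a CCAAT box 8 were lower in FMT-Con A against WT, as was Birc5, the 1 without one. Over all genes 32.5% were higher and 30.9% lower in Con A against WT, and 31.2% higher and 27.9% lower in FMT-Con A against WT.

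Other genes of the pathway were taken from 4 lists. The counts of each list stand beside these shares over all genes. In Con A against WT 32.5% were higher and 30.9% lower, and in FMT-Con A against WT 31.2% and 27.9%. In FMT-Con A against Con A 6.26% were higher and 10.6% lower. Among 10 CDK inhibitors and RB family genes 8 were tested, and 3 rose and 3 fell in Con A against WT, 3 were higher and 1 lower in FMT-Con A against WT, and 2 higher and 0 lower in FMT-Con A against Con A. Cdkn1a, which encodes the CDK inhibitor p21, had 3.48, 1.36 and 0.752 CPM in WT, 355, 194 and 249 CPM in Con A, and 126, 183 and 119 CPM in FMT-Con A. Its log2 fold change was 7.16 in Con A against WT (SE 0.55, edgeR adjusted p = 3.92e-06) and -0.90 in FMT-Con A against Con A, which did not pass (edgeR adjusted p = 0.157). Rbl1, which encodes the pocket protein p107, rose by 1.52, and Cdkn2c (p18) fell by 2.04 on the log2 scale. Cdkn2d, which encodes the CDK4 inhibitor p19, had 1.10 ± 0.382 CPM in WT, 2.95 ± 0.340 CPM in Con A, and 6.04 ± 0.551 CPM in FMT-Con A (SD, n = 3 each), and was higher in FMT-Con A than in Con A (log2 fold change 1.03, edgeR adjusted p = 0.0256). Cdkn1c (p57) was higher there too (1.89, edgeR adjusted p = 0.00952). It had 0.419, 0.291 and 0.456 CPM in Con A, and 1.80, 1.09 and 1.45 CPM in FMT-Con A 1, 2 and 3. For the genes of the 4 lists, calls in FMT-Con A against Con A were not tested without the muscle-rich FMT-Con A 1 and 3.

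Of 17 other E2F, MYC family and G1 kinase genes 9 rose and 4 fell in Con A against WT, 6 were higher and 3 lower in FMT-Con A against WT, and 1 was higher and 3 lower in FMT-Con A against Con A. Mxd1, whose protein competes with MYC for MAX, went from 7.999 ± 0.757 CPM in WT to 166 ± 30.3 CPM in Con A, and 69.8 ± 8.73 CPM in FMT-Con A (SD, n = 3 each). Its log2 fold change was 4.37 in Con A against WT (edgeR adjusted p = 1.95e-07) and -1.25 in FMT-Con A against Con A (edgeR adjusted p = 0.00285). Max itself rose by 1.12 and Cdc25a, the phosphatase that activates CDK2, by 1.76 on the log2 scale against WT. In FMT-Con A against Con A, E2f3 was lower (-0.63, edgeR adjusted p = 0.0226) and Tfdp2, a partner of E2F, higher (1.495, edgeR adjusted p = 0.0225). Tfdp2 had 4.71, 6.55 and 6.22 CPM in Con A, and 20.2 and 21.9 CPM in the muscle-rich FMT-Con A 1 and 3 against 7.07 CPM in FMT-Con A 2, and the part of muscle in this call was not tested. Cdk6, a partner of D-type cyclins, was lower in FMT-Con A than in WT (-1.14, edgeR adjusted p = 0.000386).

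Of 40 other replication genes 39 were tested, and 6 rose and 12 fell in Con A against WT, 5 rose and 10 fell in FMT-Con A against WT, and 2 were higher and 3 lower in FMT-Con A against Con A. Over all genes 63.4%, 59% and 16.8% were called in these 3 comparisons. Rpa3, a subunit of the single-strand binding complex RPA, fell by 1.57 on the log2 scale in Con A. Pold1 and Prim1, of the replicative polymerase and the primase, were higher in FMT-Con A than in Con A (0.90 and 0.93, edgeR adjusted p = 0.0237 and 0.0303). Chaf1b, a subunit of the chromatin assembly factor CAF-1, had 1.42, 1.498 and 1.92 CPM in WT, 6.34, 5.09 and 6.84 CPM in Con A, and 1.20, 2.52 and 1.53 CPM in FMT-Con A. It was higher in Con A than in either other group, with log2 fold changes of 1.91 against WT (edgeR adjusted p = 0.000348) and of -1.81 for FMT-Con A against Con A (edgeR adjusted p = 0.00616). Fen1, the flap endonuclease, had 3 counts over the WT group and 42 in Con A, a ratio of 14.7 (95% counting interval 4.71 to 74.3, for counting error only). It shares 78.8% of its exon bases with Gm10143 and 5.37% with Tmem258, both on the opposite strand. Gm10143 had 0.255 ± 0.211 CPM in WT and 0.159 ± 0.0349 CPM in Con A (SD, n = 3 each). Tmem258 had 30.1 ± 1.77 CPM in WT and 30.6 ± 6.16 CPM in Con A (SD, n = 3 each). Mcm10, a replication initiation factor, had 95.8, 160.4 and 70.5 CPM in WT, 31.2, 24.6 and 16.7 CPM in Con A, and 7.14, 14.9 and 6.56 CPM in FMT-Con A (log2 fold change -3.52 in FMT-Con A against WT, edgeR adjusted p = 7.76e-05).

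Of 30 other mitotic genes 25 were tested, and in Con A against WT 2 rose and 9 fell, in FMT-Con A against WT 2 rose and 12 fell, and in FMT-Con A against Con A 2 fell. The shares called over all genes were 63.4%, 59% and 16.8%. Cenpa, the histone of the centromere, had 7.37, 7.07 and 7.40 CPM in WT, 2.46, 1.46 and 1.91 CPM in Con A, and 1.29, 1.66 and 1.22 CPM in FMT-Con A. All 6 libraries of injected mice were below WT (log2 fold change -1.91 in Con A against WT, edgeR adjusted p = 8.07e-05). Cks2, a CDK-binding subunit, and Kif23, a kinesin of cytokinesis, were lower in FMT-Con A than in WT by log2 fold changes of -1.48 and -3.32 (edgeR adjusted p = 0.000148 and 0.000657). Wee1, the kinase that restrains CDK1, and Nek2, a centrosome kinase, were lower in FMT-Con A than in Con A (-0.82 and -1.62, edgeR adjusted p = 0.0383 for each).

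Markers of other cell types that a liver sample can hold were summed in each library. Of 13 T and NK cell markers 12 were tested, 9 rose and 1 fell in Con A against WT and 5 were lower in FMT-Con A than in Con A. Over all genes 32.5% were higher and 30.9% lower in Con A against WT, and 10.6% lower in FMT-Con A against Con A. The summed level of the 13 markers was 10.4 to 12.3 CPM in WT, 48.1 to 84.5 CPM in Con A, and 23.5 to 29.1 CPM in FMT-Con A. The 10 neutrophil markers summed to 9.64 to 14.9, 281 to 485 and 211 to 338 CPM, and 6 genes of neutrophil precursors to 0.595 to 0.749, 4.95 to 11.7 and 4.04 to 11.2 CPM. The 7 monocyte and macrophage markers summed to 27.9 to 35.2, 316 to 837 and 338 to 575 CPM. Stellate cell markers summed to 258 to 302 CPM in WT, 195 to 391.8 CPM in Con A, and 747, 246 and 727 CPM in FMT-Con A 1, 2 and 3. FMT-Con A 1 and 3 are the libraries richest in muscle genes. Of the 8 stellate markers 0 were higher and 0 lower in FMT-Con A against Con A. Their log2 fold changes there had a median of 0.17 and ran from -0.91 to 3.36, so the sum does not stand for the whole list. Erythroid markers summed to 157 to 210, 250 to 618 and 250 to 476 CPM, and B and plasma cell markers to 6.79 to 9.11, 5.26 to 9.27 and 6.33 to 9.35 CPM. The 6 cholangiocyte markers summed to 22.7 to 27.3, 117.1 to 279.5 and 94.5 to 237.7 CPM. Of the 5 tested, 4 were higher and 0 lower in Con A against WT. Sinusoidal endothelial markers summed to 112.9 to 149.9, 135.1 to 177.5 and 128 to 179.3 CPM. Of these 8 markers 4 were higher and 2 lower in Con A against WT. Kupffer cell markers summed to 210 to 297 CPM in WT, 202 to 233 CPM in Con A, and 94.2, 188 and 94.3 CPM in FMT-Con A 1, 2 and 3. Of these 9 markers 3 were higher and 2 lower in Con A against WT, with log2 fold changes from -0.98 to 3.30. In FMT-Con A against WT 1 was higher and 4 lower, beside 31.2% and 27.9% over all genes. Log2 fold changes in Con A against WT also ran from -0.16 to 3.79 for erythroid and from -0.53 to 8.09 for monocyte and macrophage markers. These sums thus do not stand for whole lists. No gene of these lists was at 0 in all libraries. The 18 G2/M members summed to 40.3, 52.1 and 33.7 CPM in WT, 26.7, 28.5 and 29.6 CPM in Con A, and 17.6, 25.7 and 17.4 CPM in FMT-Con A. The part of these cell types and of the muscle transcripts in the members' values was not tested.

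**Figure D5:**
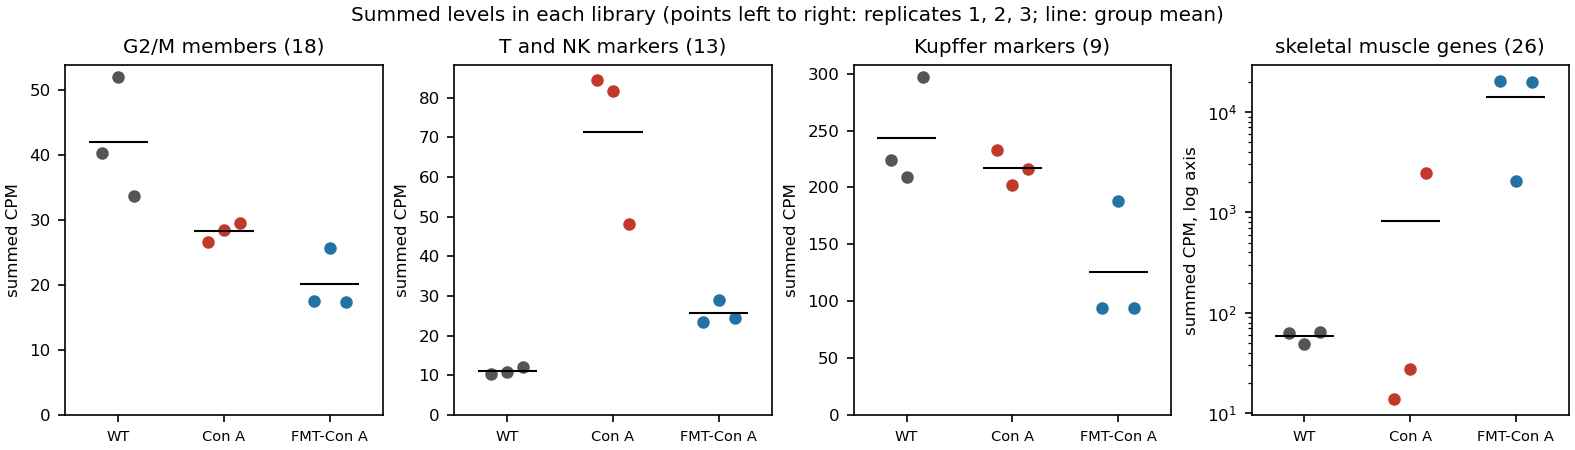
Points are summed CPM in each library for the 18 G2/M members, 13 T and NK cell markers, 9 Kupffer cell markers and 26 skeletal muscle genes, on axes from 0 except the log axis of the muscle panel, with lines at group means. The G2/M sum is highest in WT while the T and NK sum is highest in Con A, and FMT-Con A 2 differs from FMT-Con A 1 and 3 in the G2/M, Kupffer and muscle sums.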

How the data were processed

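Liver RNA of 9 libraries was analysed from 1 deposited file of read counts per library, with no normalization by the authors. The tools named in the submitters' processing notes are CASAVA, HISAT2 and featureCounts, and the builds are GRCm38 and mm10. Their versions, the annotation release, and the settings for strand and for reads with several alignments are not given in the sources used here. Symbols, positions and exon lengths came from GENCODE vM21 and promoters from RefSeq GRCm38.p6.

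A single model over the 9 libraries was fitted with edgeR 4.0.16 in R 4.3.3 with TMM factors, filterByExpr (minimum count 10, minimum total 15), 6 residual degrees of freedom, and two-sided quasi-likelihood F tests. SE was taken as the size of the log2 fold change divided by root F. The procedure was run on simulated counts in which few genes changed. Many genes differed between the real groups, so that run cannot speak for the scaling or the error rate here. CPM are scaled by library size and TMM factor. Alternatives were DESeq2 1.42.0, other scalings, no filter, fits of the 2 groups alone, a replicate block and each library left out. After seeing the data, 2 more were added, without the 2 libraries richest in muscle genes and without muscle and mitochondrial genes. The members and lists were chosen with earlier results of these data known. Full values are given for members past the threshold with a 2-fold change in any comparison and whatever their p for Mki67, Ccnd1, Cdk1, Ccnb1, Top2a, Mcm2, Pcna and Myc, and for pathway lists from up to 3 genes with the lowest p per comparison, with Cdkn1a in any case. One gene that this rule names is not reported here. Exon bases shared with another gene that had counts were found for 11 members.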

Additional observations from a re-analysis of the deposited data

How the results depend on the processing

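Con A against WT had 8 to 9 members higher, 7 to 9 lower and 9937 to 12101 genes called with 1 library left out, and 10 higher and 8 lower with no filter, and the 12 G1/S calls passed in every alternative run. FMT-Con A against WT had 7 to 8 members higher, with 8 to 14 lower and 9060 to 11349 genes called when 1 library was left out. Without both libraries richest in muscle genes it gave 5 members lower and 6957 genes, where the lone FMT-Con A library is assumed to vary like the other groups and fewer samples enter. FMT-Con A against Con A was the least settled. Its 2 lower members became 0 with library totals alone, 4 with DESeq2, 1 with only the 2 groups compared, 1 with the replicate block, 0 without both muscle-rich libraries, and 0 to 5 with 1 library left out. Its 2981 genes called became 1156 with only the 2 groups, 99 without both muscle-rich libraries, and 664 to 4053 with 1 library left out. The cause was not tested.

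Replicate numbers are shared between groups, but deviations from the group means correlated at -0.22 to 0.34 over the 9 same-numbered pairs, and 4 of the 9 libraries correlated best with their own number. With the replicate block 16, 1 and 22 members were called in Con A against WT, FMT-Con A against Con A and FMT-Con A against WT, and 11093, 2663 and 10207 genes. Scaling by library totals alone moved the median of all genes from 0.01 to -0.19 in Con A against WT (4845 genes higher and 6457 lower, against 5749 and 5470) and from -0.01 to 0.18 in FMT-Con A against Con A (2124 higher and 1122 lower, against 1108 and 1873).

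Log2 fold changes that changed sign had passed in neither setting. In Con A against WT, leaving out 1 library gave -0.196 to 0.083 for Cdk1, -0.899 to 0.312 for Bub1, -0.375 to 0.104 for Tpx2 and -0.416 to 0.15 for Mki67. In FMT-Con A against Con A it gave -0.006 to 0.19 for Ccnd2, -0.04 to 0.599 for E2f1 and -0.237 to 0.111 for Mcm4, and in FMT-Con A against WT -0.176 to 0.464 for Ccnd1, -0.595 to 0.056 for Myc and -1.23 to 0.416 for Ccnb1. Library totals alone gave 0.129 for Mcm4 in FMT-Con A against Con A. Without both muscle-rich libraries the same comparison gave -0.111 for Ccnd2, 0.309 for Ccne1, -0.24 for E2f1, 0.063 for Mcm4 and 0.475 for Ccnb1, and FMT-Con A against WT gave 1.099 for Ccnb1. Low counts limit the G2/M members, at 2 to 286 counts per library.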
